A study of Mus musculus with 3 samples.

Results

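The cytosolic ribosomal protein genes are the 86 genes, of 32285 in the annotation of the deposited matrices, whose symbol is Rpl or Rps followed by a number, or is Rplp0, Rplp1, Rplp2 or Rpsa. Pseudogene rows marked -ps and the Rps6k kinases were left out. Of the members, 43 encode proteins of the large subunit, 31 of the small subunit and 3 the stalk; the other 9 carry a ribosomal protein's name as a paralog, a retrogene or a binding partner. RNA of single peripheral blood mononuclear cells was counted in C57BL/6 mice in 3 libraries, 1 for each condition. The young library came from young mice given PBS for 1 month, the aged library from aged mice given PBS for 1 month, and the aged+AA library from aged mice given AA for 1 month, where AA is ascorbic acid by the title of the series. All 3 share strain, tissue, separation medium and 3′ chemistry, and how many mice went into each library is not given in the sources used here. With 1 library per condition, no difference between conditions has a replicate check; the intervals printed for them cover counting error only, and UMIs (unique molecular identifiers) stand for the molecules counted.

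A ribosome joins a large and a small subunit, each an RNA core dressed with ribosomal proteins that are, with few exceptions, made in equal numbers. The acidic stalk proteins, encoded by Rplp0, Rplp1 and Rplp2, recruit elongation factors. Most of these mRNAs begin with a terminal oligopyrimidine (TOP) tract, an unbroken run of C and T at the transcription start, through which mTOR and the RNA-binding protein LARP1 set how fast they are translated. Resting lymphocytes hold large stocks of these mRNAs and draw on them when activated, while neutrophils, as short-lived end cells, hold few.

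The pyrimidine tract at the start is the sequence feature these genes are known for, and 66 of the 86 members were found in RefSeq's promoter table for GRCm38.p6. An unbroken run of at least 8 C or T within 20 bases of the start, read on the sense strand, was present in 26 of the 57 core genes found (45.6%), against 15.9% of the 27025 genes in the table. In the 300 bases from 250 before to 50 after the start, on either strand, the ETS-type motif CCGGAAG stood in 40.4% of the core genes against 9.12% of all, CTCTTTC in 29.8% against 8.01%, and TATAAA in 8.77% against 14.2%. The windows below run from 20 bases before to 10 after the annotated start, with the longest run of C and T in capitals. They show 4 core genes with long runs, from the small subunit, large subunit and stalk, and 3 genes of the Rps27 group discussed later. They lie at chr4:86857358-86857387 (Rps6, minus strand), chr2:39005122-39005151 (Rpl35, minus), chr17:33955656-33955685 (Rps18, minus), chr7:141447631-141447660 (Rplp2, plus), chr3:90213639-90213668 (Rps27, minus), chr9:114982730-114982759 (Rps27rt, minus) and chr9:66946066-66946095 (Rps27l, plus).
Rps6: gggttaagcggaagtcgggCCTCTTTTTCg
Rpl35: gaagtcggccccgCCCTTTCCTCTTTCTCT
Rps18: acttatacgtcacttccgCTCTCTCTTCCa
Rplp2: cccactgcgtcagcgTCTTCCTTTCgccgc
Rps27: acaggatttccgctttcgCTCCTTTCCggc
Rps27rt: ggttaagaacttaTCCCTTgctttccggcg
Rps27l: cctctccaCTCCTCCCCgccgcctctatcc
The run was at least 17 bases long in Rpl35, where it reached the last base of the window. It was 11 in Rps18, 10 in Rps6 and Rplp2, 9 in Rps27 and Rps27l, and 6 in Rps27rt. A run is a description of letters near an annotated start, which was not mapped in these cells.

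The coding sequences of the Rps27 group are printed because they decide what the counts of 3 members can mean. Rps27, a zinc-finger protein of the small subunit, and the intronless retrogene Rps27rt had identical coding sequences over 252 bases (84 codons), so 1 sequence serves for both. Rps27l, the Rps27-like paralog and a known p53 target, differed from them at 60 of the 252 bases (76.2% identity), and its differing bases are in capitals. Both were read from the GENCODE M21 annotation on mm10.
Rps27: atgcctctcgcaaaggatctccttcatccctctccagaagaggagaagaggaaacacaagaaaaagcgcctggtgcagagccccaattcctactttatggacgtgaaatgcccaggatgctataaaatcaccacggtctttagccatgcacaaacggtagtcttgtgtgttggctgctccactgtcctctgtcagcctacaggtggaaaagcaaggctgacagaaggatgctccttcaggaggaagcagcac
Rps27l: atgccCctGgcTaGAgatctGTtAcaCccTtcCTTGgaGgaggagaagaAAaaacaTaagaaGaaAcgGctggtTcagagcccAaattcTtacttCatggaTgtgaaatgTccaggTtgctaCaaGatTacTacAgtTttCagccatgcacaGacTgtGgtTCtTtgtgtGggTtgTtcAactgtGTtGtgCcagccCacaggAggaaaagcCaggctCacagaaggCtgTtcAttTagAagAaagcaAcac
Rps27 lies at chr3:90212522-90213651, Rps27rt at chr9:114982366-114982739 and Rps27l at chr9:66946086-66949516. Of the 90-base words in the last 400 bases of the Rps27 transcript, where 3′ tags fall, 98.4% occur in another gene, against 4.18% for Rps27l. Such copies are common in the family: 62 of 86 members share at least 1 such word with another gene and 32 share at least 50% of them, so counts of those members depend on how the authors' counting treated reads with several matches. Rpl12, Rpl37 and Rpsa share none.

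After filtering, 8769 cells were kept (young), 9722 (aged) and 10996 (aged+AA), with a median of 4458, 3602 and 4079.5 UMIs. Any pair of libraries shared 21 to 29 cell barcodes. Cells were gated by marker genes into T, B, NK and myeloid cells. T cells made up 61.9%, 16.3% and 37.6% of young, aged and aged+AA cells, and myeloid cells 0.810%, 22.8% and 2.80%. The aged library stood apart in more than makeup. In it, 23.0% of cells carried markers of more than 1 class and were set aside (2.82% in the young and 7.60% in the aged+AA library), and haemoglobin made up 26.8% of the free RNA in near-empty droplets (9.97% and 11.5%). In T cells the summed myeloid markers stood at 92.7 (young), 321 (aged) and 136 (aged+AA) CPM, counts scaled to the same total in every sum. Each comparison with the aged library below rests on that 1 library.

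The family took 30.2% of all UMIs of kept cells, and 64 of the 100 most counted genes were members. The large and small subunits took equal parts of the family, 47.6% each, the stalk 4.04% and the 9 other members 0.726%. Levels of the 77 core genes reached 10594 CPM, with a median of 3886 CPM and 72 genes at 1000 CPM or more. In this 3′ assay a transcript is counted once whatever its length, so CPM were compared between genes without scaling by length. The most counted members were Rps24 (10594 CPM), Rps27 (8089 CPM), Rpl13 (7418 CPM), Rps15a (7249 CPM) and Rps20 (7136 CPM), 4 of them proteins of the small subunit. Among the least counted core genes were Rpl23a (592 CPM), Rpl31 (597 CPM), Rps15 (632 CPM) and Rpl5 (773 CPM). Their proteins sit in the same particle as those of the most counted genes.

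**Figure D1:**
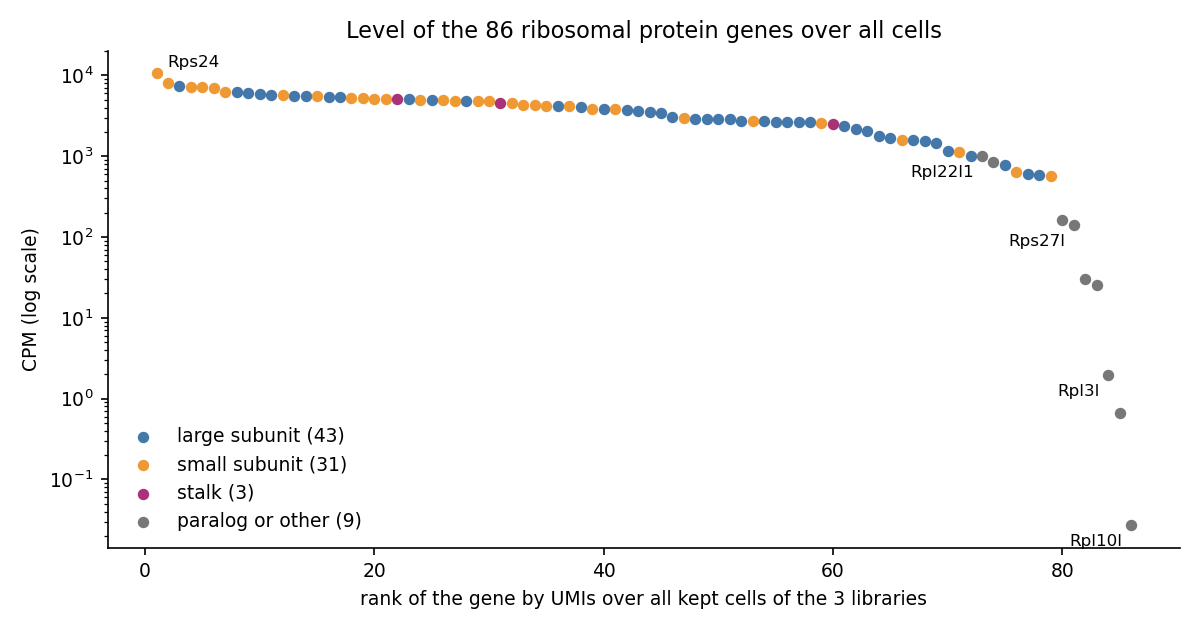
Level of each of the 86 members over all kept cells of the 3 libraries (y axis, CPM on a log scale) against its rank by UMIs (x axis), 1 point per gene, coloured by role. Of the 77 core genes 72 lie at 1000 CPM or more, and below the core genes come Rps27l at 140 CPM and, near 0, Rpl3l and Rpl10l.

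The share of a cell's RNA given to the family differed by cell class and was lower in the aged than in the young library in T and B cells. Of all UMIs in T cells, the family took 40.2% (young), 31.7% (aged) and 37.3% (aged+AA). In B cells it took 30.0%, 25.6% and 28.9%. In NK cells the 3 libraries stood close together, at 17.6%, 17.2% and 17.7%. The exact binomial 95% intervals of these shares were narrow, the widest running from 17.6% to 17.8%. In monocyte-gated cells, of which there were 52, 1002 and 124, the share was 16.4%, 18.5% and 17.2%, highest in the aged library. Neutrophil-gated cells held the least, 3.1% in the aged (777 cells) and 3.62% in the aged+AA library (162 cells); the young library held 12 such cells, too few to use. These pooled shares of the whole lymphocyte gates did not overlap: the lowest of the T gate was above the highest of the B gate, and the lowest of the B gate above the highest of the NK gate. Single cells and T subsets did overlap with B cells. The median aged T cell (30.5%) lay below the median young B cell (31.5%), and pooled aged CD4+ T cells (29.0%) below pooled young B cells. The myeloid gate as a whole gave 13.8%, 15.4% and 11.8%, a mixture of monocytes and neutrophils whose proportions differed between libraries.

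Within classes the spread over cells was wide. The median T cell had 41.4% in the young (quartiles 36.6% and 45.3%), 30.5% in the aged (22.5% and 39.8%) and 38.4% in the aged+AA library (30.0% and 43.5%). The quartile ranges of the young and aged libraries thus overlapped. Both T lineages showed the order young, aged+AA, aged: CD4+ T cells had medians of 39.7%, 33.1% and 28.2%, and CD8+ T cells 43.5%, 41.0% and 35.8%. T cells with no UMI of 4 effector genes (Ccl5, S100a4, S100a6, Nkg7) had medians of 40.9%, 39.3% and 35.2%, and those with at least 1 had 42.5%, 37.9% and 29.0%, in the same order. In B cells the medians were closer than the pooled shares, at 31.5%, 30.0% and 28.7%.

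Other measures moved with the share. Haemoglobin took 2.74% of T-cell UMIs (young), 8.18% (aged) and 3.04% (aged+AA), and mitochondrial genes took 5.01%, 2.85% and 4.22%. In cells with at most 5% haemoglobin UMIs, the ratio of the aged to the young share in T cells was 0.831, against 0.789 in all T cells. Among cells with 2 to 5% mitochondrial UMIs it was 0.860. The gap was not even over narrower bins. The median T cell had 38.9% (young) and 34.0% (aged) at 2 to 4% mitochondrial UMIs. At 4 to 6% the medians were 42.3% and 27.6% (181 aged cells). Under 2% the order was reversed, at 13.7% (52 young cells) and 20.9%. With haemoglobin and mitochondrial UMIs taken out of the total, the ratio of shares in T cells was 0.819, and with the estimated free RNA subtracted 0.797. In B cells the same ratio was 0.852 in all cells, 0.926 in cells low in haemoglobin and 0.919 between 2 and 5% mitochondrial UMIs. The part of myeloid RNA in the T-cell result was not tested.

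**Figure D2:**
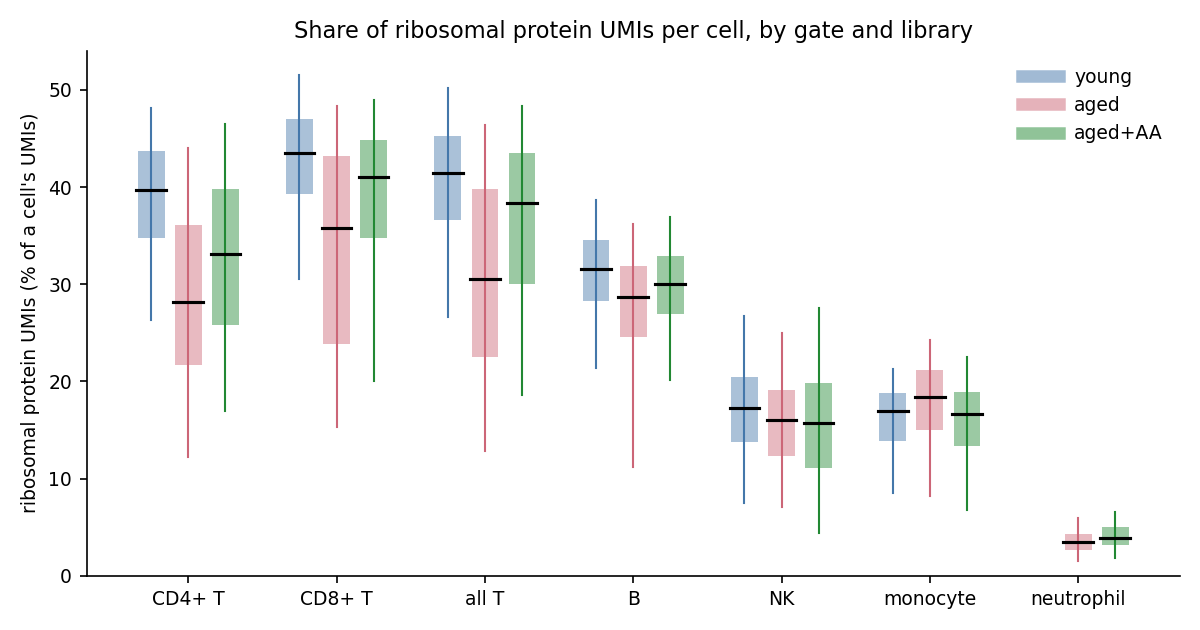
Share of a cell's UMIs taken by the ribosomal protein genes (y axis, percent) for each gate (x axis) and library (colour): box, quartiles; line in the box, median; thin line, 5th to 95th percentile over cells. T cells have the highest medians, 41.4%, 30.5% and 38.4% (young, aged, aged+AA), and neutrophil-gated cells the lowest, and gates with too few cells are not drawn.

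Nearly the whole family stood lower in aged than in young T cells, in unequal measure. A member was counted as past the fold when its CPM differed by at least 1.5-fold between 2 libraries and it had at least 20 UMIs over the 3. Of 84 members measured in T cells at that level, 17 were lower and 0 higher in the aged library, where 7.16% of all 12491 genes were lower and 31.7% higher. In all, 74 members had a ratio below 1, and the median ratio was 0.791, or -0.34 on the log2 scale, while that of all genes was 0.32 on the same scale. Set against that median of all genes, 52 members were past the fold downwards, where 1790 of 12491 genes were lower and 2159 higher. By role, the median ratio was 0.798 for the large subunit (7 of 43 lower past the fold), 0.778 for the small subunit (8 of 31) and 0.658 for the stalk (2 of 3). The paralogs and other members stood apart, with a median of 1.11 over 7 measured and 0 lower. A share falls whenever other RNA takes more of the total, and these ratios are of shares.

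The most reduced member in T cells was Rpl12, a large-subunit protein at the base of the stalk. It stood at 4807 CPM (young), 2053 (aged) and 3456 (aged+AA). Rplp1, a stalk protein, stood at 8379, 3839 and 6283 CPM. The value of the aged+AA library lay between the other two for both genes. The other stalk genes had smaller gaps: Rplp0 stood at 7637, 5406 and 7347 CPM, and Rplp2 at 3669, 2415 and 3270 CPM. Rpsa, the small-subunit protein also known as the laminin receptor, stood at 7463, 5911 and 7705 CPM, so that its aged+AA value was above the young one. Among small-subunit genes, Rps25 had 1584, 792 and 1226 CPM and Rps6, whose protein is the phosphorylation target of S6 kinase, had 2781, 1441 and 1871 CPM. Rps24, the most counted member, differed less, with 14390.5, 11244.8 and 13262.9 CPM.

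The aged+AA over aged comparison shares the aged library with the comparison above, so opposite ratios in the 2 are not separate evidence. In T cells 5 of 84 members were past the fold upwards and 0 downwards, where 6.73% of all genes were higher and 14.5% lower. The median ratio of the members was 1.20 and that of all genes 0.916. The 5 members were Rpl12 (ratio 1.68), Rps12 (1.66), Rplp1 (1.64), Rpl17 (1.60) and Rps25 (1.55). Rps12, a small-subunit protein, stood at 3194 CPM (young), 2089 (aged) and 3468 (aged+AA). The share of members higher past the fold, 5 of 84, was near the background of all genes.

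B cells gave the same kind of picture with smaller gaps. In the aged over young comparison 10 of 84 members were lower and 0 higher, where 8.65% of all genes were lower and 19.3% higher, and the median ratio was 0.849. For aged+AA over aged, 4 were higher and 0 lower (all genes, 6.79% and 8.01%), with a median of 1.16. NK cells had 8 of 83 members lower and 0 higher in aged over young (all genes, 10.7% and 17.1%), with a median of 0.987. For aged+AA over aged, 1 NK member, Rps12 at 1.56, was higher and 0 lower (11.3% and 13.2%). Monocyte-gated cells had 7 of 84 lower and 6 higher in aged over young (27.7% and 22.4%), with a median of 1.13. The aged+AA over aged comparison had 3 higher and 3 lower (21.8% and 11.1%), with a median of 0.960. In B, NK and monocyte-gated cells these shares of members were near or under those of all genes, so the counts alone set the family little apart there.

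**Figure D3:**
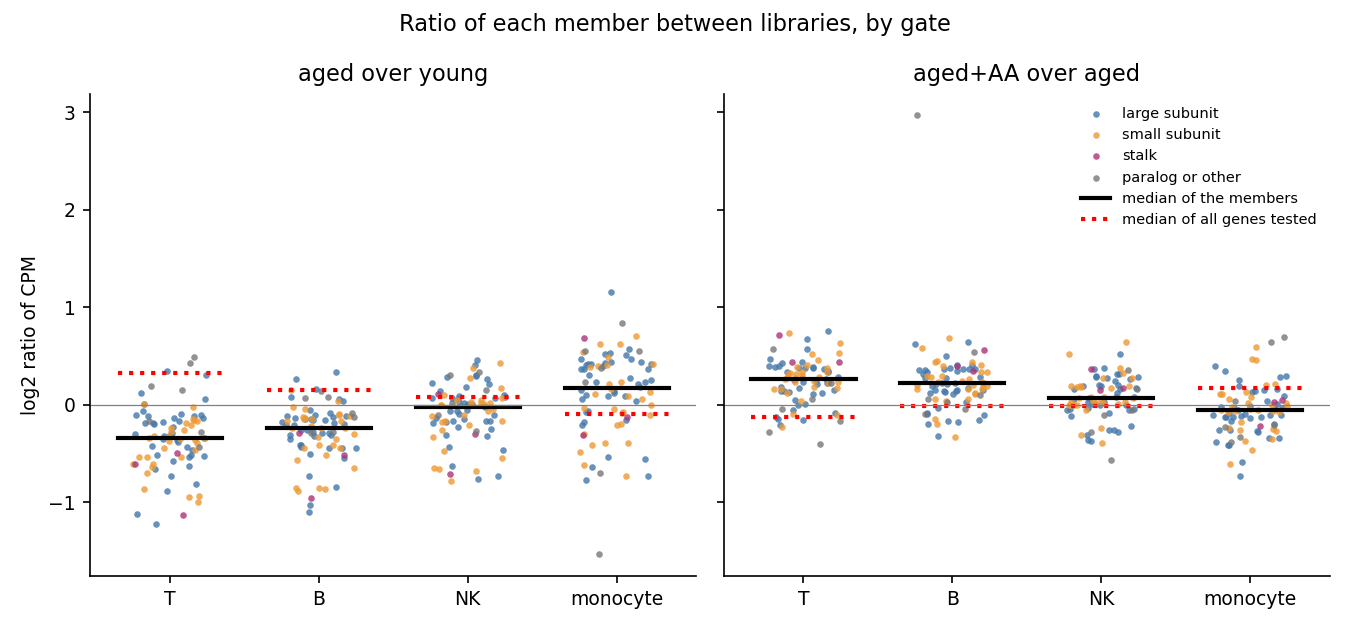
Log2 ratio of CPM between 2 libraries (y axis) for each measured member (points, coloured by role) in T, B, NK and monocyte-gated cells (x axis), with aged over young on the left and aged+AA over aged on the right; black bars are medians of the members and the grey line is no difference. In T cells 74 of 84 points lie below 0 on the left and 70 above 0 on the right; the single high point in B cells on the right is Rpl39l, with 1 and 20 UMIs.

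Several members departed from the family between libraries. To see this, each member's UMIs were set against those of the whole family, so that a ratio of 1 means that the member kept its part of the family. In T cells of the aged over the young library, 6 members were past 1.5-fold downwards and 4 upwards in this measure, where 3.89% of all genes were lower and 56.3% higher. In aged+AA over aged 1 was lower and 0 higher (28.7% and 4.15%). In B cells 8 were lower and 0 higher in aged over young (5.32% and 34.1%), and in NK cells 8 and 0 of 83 (9.74% and 20.1%), where the lower share was near that of all genes.

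Rpl12 made up 11.97 of each 1000 family UMIs in young, 6.47 in aged and 9.28 in aged+AA T cells. Its aged over young ratio relative to the family was 0.541 (95% interval 0.532 to 0.550) in T, 0.576 (0.566 to 0.587) in B and 0.602 (0.543 to 0.665) in NK cells. In monocyte-gated cells it was 0.608 (0.525 to 0.711). All 4 gates thus placed it well below the family. For Rplp1 the ratio was 0.580 in T, 0.603 in B, 0.628 in NK and 0.713 in monocyte-gated cells. For Rpl17, a large-subunit protein near the exit tunnel, it was 0.584, 0.549, 0.661 and 0.567. Rps25, a small-subunit protein used by some viral RNAs to start translation, had 0.633, 0.638, 0.597 and 0.576.

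In aged+AA over aged cells Rpl12 and Rps25 lay above the family, and so did Rps12. Rpl12 had ratios of 1.43 in T, 1.38 in B, 1.40 in NK and 1.32 in monocyte-gated cells. Rps12 had 1.41, 1.42, 1.51 and 1.16, and Rps25 had 1.32, 1.32, 1.40 and 1.62. These values share the aged library with those of the paragraph above.

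Other members lay above the family in the aged library. Rpl36 and Rpl41 encode short proteins of the large subunit. Rpl36 stood at 3020 CPM in young, 3833 in aged and 3703 in aged+AA T cells, so that its CPM was higher in the aged library although the family's share was lower. Its ratio to the family was 1.61 in T, 1.48 in B and 1.36 in NK cells, and 1.22 in monocyte-gated cells. Rpl41 had 1.56, 1.41, 1.40 and 1.97. In monocyte-gated cells its level was 2306 CPM (young), 5144 (aged) and 3096 (aged+AA), the widest gap of any core member there. Below the family in those cells were Rpl13a (0.519), Rpl23a (0.531) and Rpl17, and Rpl36al (1.58) and Rps20 (1.44) were above it. In aged+AA over aged monocyte-gated cells Rps25 and Rps15 (1.5) were among those farthest above the family, and Rpl41 (0.650) lay farthest below.

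A further set lay below the family in aged+AA over aged cells. Rps28, a small-subunit protein, stood at 6937 CPM in young, 6988 in aged and 5946 in aged+AA T cells. The family's share had an aged over young ratio of 0.789 in T cells, so Rps28 lay above the family in the aged library. Part of its gap between aged+AA and aged T cells is thus its high place in the aged library. Its aged+AA over aged ratio to the family was 0.724 in T, 0.700 in B, 0.741 in NK and 0.710 in monocyte-gated cells. Rpl35, a large-subunit protein, stood at 3834, 3061 and 2654 CPM in T cells, lowest in the aged+AA library, with ratios of 0.738, 0.709, 0.750 and 0.717. Rpl37 had 0.768, 0.770, 0.757 and 0.829. For Rpl35 the aged over young ratio was close to 1 in T cells, at 1.01 (0.997 to 1.03), so that its gap was between the aged+AA library and both others.

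The free RNA of near-empty droplets, which belongs to no gated cell, lay on the same side for most of these values. In it the aged over young ratio to the family was 0.556 for Rpl12, 0.492 for Rplp1, 0.682 for Rpl17 and 0.806 for Rps25, and 1.12 for Rpl36 and 1.17 for Rpl41. The aged+AA over aged ratio there was 1.59 for Rpl12, 0.647 for Rps28, 0.690 for Rpl35 and 0.674 for Rpl37. Rpl35 differed in aged over young, with 0.713 in free RNA against 1.01 in T cells. Whether the gaps of these members come from the mice or from the making of the library cannot be told apart with 1 library per condition. Across the 77 core genes, the ratio to the family had a Spearman rho with transcript length of -0.30 in aged over young and 0.33 in aged+AA over aged T cells. These are descriptions over genes that share libraries and depth.

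**Figure D4:**
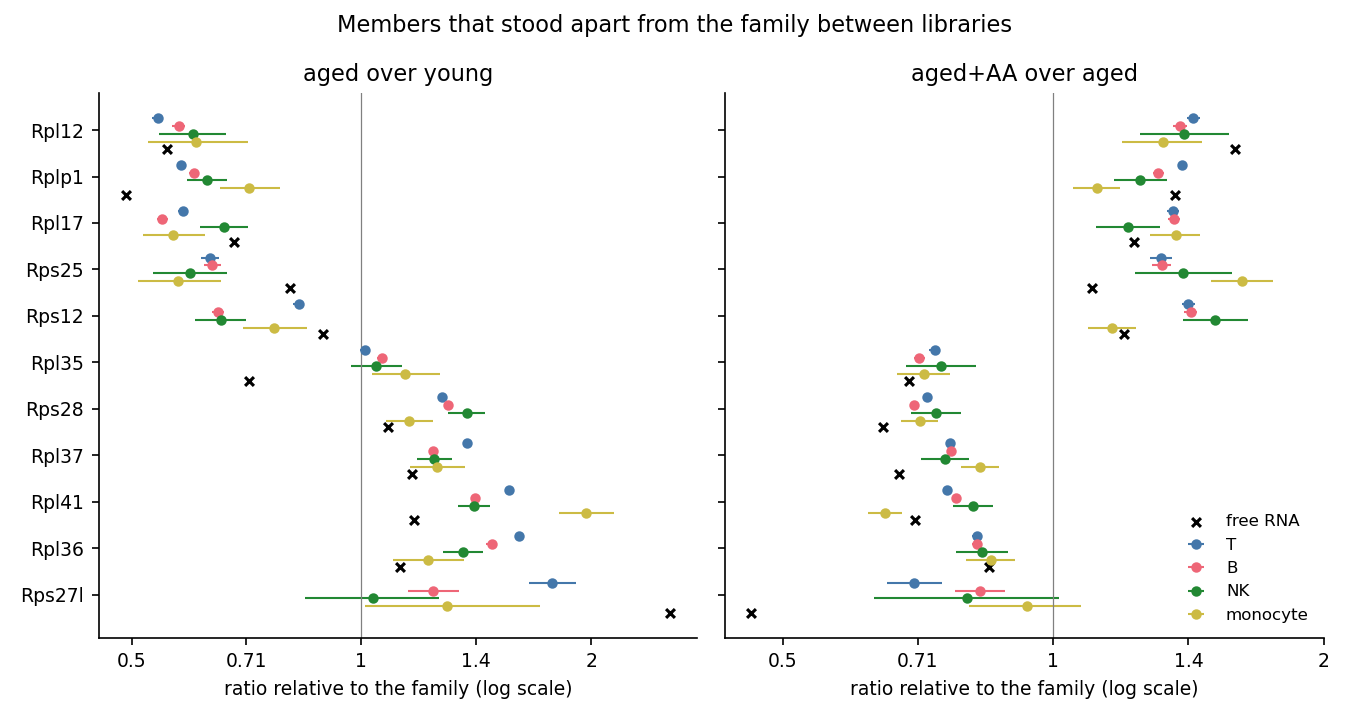
Ratio of each named member to the family (x axis, 1 = moves with the family) for 11 members (y axis) in T, B, NK and monocyte-gated cells (coloured points with 95% counting intervals) and in free RNA (crosses), with aged over young on the left and aged+AA over aged on the right. Rpl12, Rplp1, Rpl17 and Rps25 lie left of 1 in the left panel in all 4 gates and in free RNA, and Rpl35, Rps28 and Rpl37 lie left of 1 in the right panel.

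The paralogs were counted little, apart from 2. Rpl22l1, the paralog of the RNA-binding large-subunit protein Rpl22, had 1408 CPM in young, 1160 in aged and 1206 in aged+AA T cells. Rpl36al had 857, 954 and 927 CPM and shares 75.9% of its 3′ words with other genes. Rps27l stood at 99.3 CPM in young, 139 in aged and 115 in aged+AA T cells, and its aged over young ratio to the family, 1.78 (1.66 to 1.91), was the highest of the members with at least 20 UMIs in T cells. It was 1.24 in B and 1.03 (0.843 to 1.26) in NK cells. Rps27rt had 184, 136 and 202 CPM in T cells beside 10793.8, 8881 and 8294 CPM for Rps27, and since the coding sequences are identical these reads cannot be told apart with certainty. The remaining members were Rps19bp1 (30.5 CPM over all cells), Rpl7l1 (25.8 CPM), Rpl3l (1.97 CPM) and Rpl39l (0.671 CPM). Rpl10l, a testis paralog of Rpl10, had 4 UMIs in all and was not compared.

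Rpl3l, known as the paralog of Rpl3 in heart and skeletal muscle, was found in myeloid cells. Its UMIs in the myeloid gate numbered 11 (young), 215 (aged) and 30 (aged+AA), or 34.2, 15.4 and 25.4 CPM. T cells held 0, 1 and 0, B cells 0, 3 and 0, and NK cells 0 in each library. Both monocyte-gated cells (124 UMIs in the aged library) and neutrophil-gated cells (27) contributed. Its transcript shares none of its 3′ words with another gene.

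Differences between classes could be tested, because each library holds all classes. UMIs were summed by library and class, and edgeR's quasi-likelihood test was fitted over 12312 genes with the library as a term, with Benjamini-Hochberg adjustment over all of them. The 3 libraries stand for 3 conditions, so the test asks for class differences that hold across them. Of 84 members tested, 80 were lower and 0 higher in NK than in T cells, where 13.5% of all genes were lower and 12.4% higher. The median log2 fold change of the members was -1.35. In myeloid over T cells 80 were lower and 2 higher (29.4% and 28.5%), with a median of -1.47. In T over B cells 21 were higher and 1 lower (20% and 21.0%), with a median of 0.42. The T over B count depended on the libraries. It was 62 higher without the aged library (all genes, 2149 of 11446), 6 without the young (2258 of 12750) and 1 without the aged+AA library (1663 of 12398). DESeq2's own test, with its size factors, gave 53 higher and 0 lower (all genes, 2483 and 2172 of 12312). The members not lower in NK cells were Rps27l, Rps19bp1, Rpl7l1 and Rpl3l, and the 2 higher in myeloid cells were Rps27l and Rpl3l.

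With the family's own total as the scale, the test asks which members depart from the rest. In T over B cells 3 were higher and 3 lower (all genes, 10.9% and 35.5%). A pair of stalk genes led: Rplp0 was higher by 0.59 on the log2 scale (SE 0.12, adjusted p 0.00123, edgeR) and Rplp1 by 0.55 (SE 0.10, adjusted p 0.000712). Rplp0 took 19.0, 17.1 and 19.7 of each 1000 family UMIs in T cells (young, aged, aged+AA) and 12.1, 11.6 and 13.5 in B cells, with no overlap. Rplp2, the partner of Rplp1 in the stalk, did not pass, at 0.20 (SE 0.11, adjusted p 0.137). Rps23 was higher by 0.26 (edgeR adjusted p 0.0462). Rpl7l1 (-0.89) and Rps27 (-0.33) were among the lower, where the median log2 change of all genes on this scale was -0.46. Rps23 lost its call without any 1 of the libraries (edgeR adjusted p 0.0634 to 0.293), and Rps27 lost its call without the young or the aged+AA library (0.0944 and 0.178). Rpl7l1 lost it without the aged+AA library (0.0537).

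NK cells departed from T cells in 27 members, 19 higher and 8 lower relative to the family (all genes, 66.7% and 2.54%). Without the aged+AA library 7 were higher and 4 lower (all genes, 6947 and 236 of 12398), and without the young library 8 and 4 (6303 and 211 of 12750). Rps19, a small-subunit protein needed for red-cell formation, was lowest: it took 9.35, 12.5 and 11.7 of each 1000 family UMIs in NK cells (young, aged, aged+AA) and 19.1, 20.9 and 21.0 in T cells. Its log2 change was -0.87 (SE 0.10, edgeR adjusted p 9.54e-06). Rpl12 (-0.78), Rps20 (-0.70) and Rps28 (-0.40) followed. The highest was Rps27l, at 1.80 (SE 0.19, edgeR adjusted p 4.56e-06), from 208, 210 and 173 CPM in NK cells. After it came Rps19bp1 (1.18), whose protein binds Rps19 and the deacetylase Sirt1, and Rpl7l1 (1.12). Both lay below the median log2 change of all genes on this scale, which was 1.32.

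Myeloid cells departed in 35 members, 25 higher and 10 lower (all genes, 64.8% and 8.16%). Without the aged+AA library 11 were higher and 8 lower (all genes, 6476 and 878 of 12398). Rpl12 was lower by the widest margin, with a log2 change of -1.35 (SE 0.12, edgeR adjusted p 1.63e-07). It took 4.52, 2.68 and 3.54 of each 1000 family UMIs in the myeloid gate, against 11.97, 6.47 and 9.28 in T cells, without overlap. Rps20 (-0.67), Rplp1 (-0.65) and Rpl36a (-0.59) were also lower. Rps27l was higher by 2.37 (SE 0.19, edgeR adjusted p 1e-07). In monocyte-gated cells it reached 240, 354 and 306 CPM, above every T-, B- and NK-cell value. Rpl3l was higher (edgeR adjusted p 1.54e-07); its fold has no firm value, since T cells held 1 UMI in all. Rpl7l1 (1.34) and Rps9 (0.95), a small-subunit protein, were the next.

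**Figure D5:**
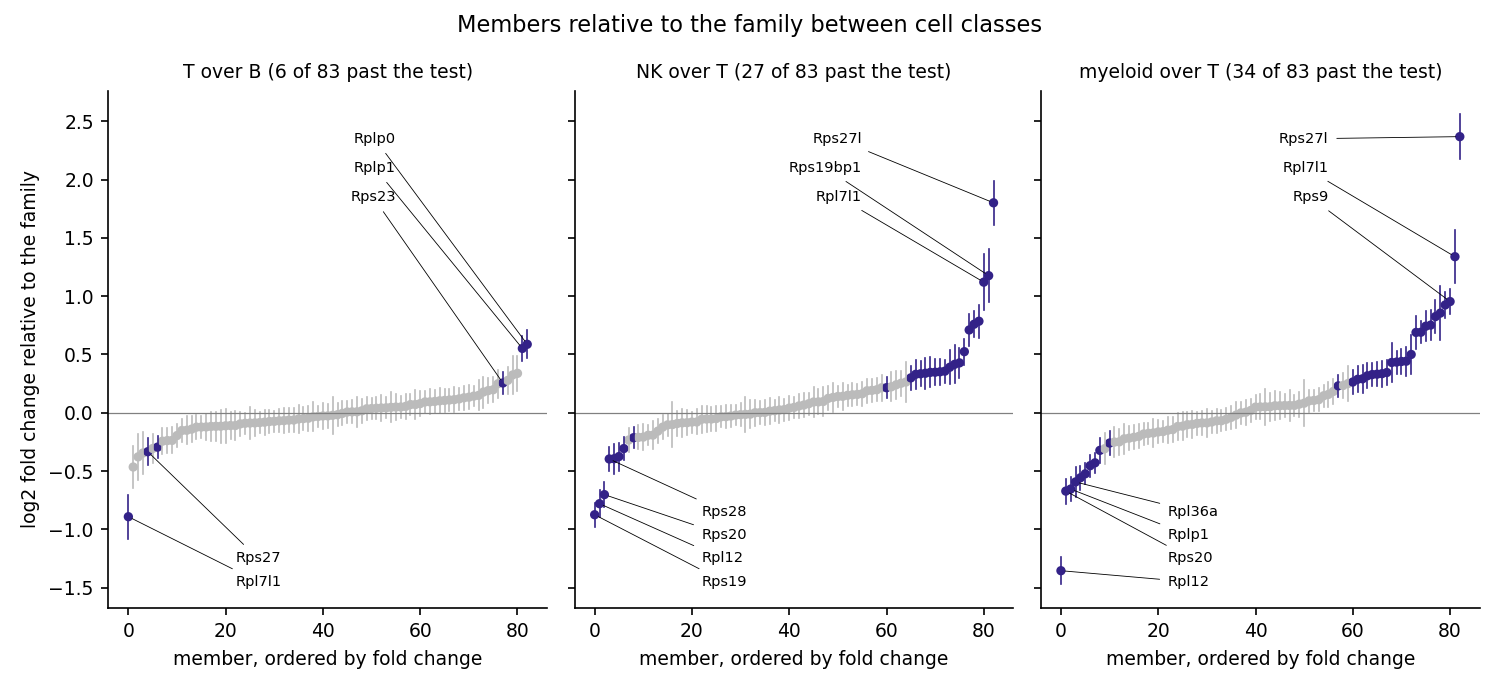
Log2 fold change of each member relative to the family (y axis) with its standard error, ordered by size (x axis), in T over B, NK over T and myeloid over T cells; coloured points pass edgeR's test at an adjusted p of 0.05 and grey points do not. Of the 83 members drawn (Rpl3l is left out), 6, 27 and 34 pass, with Rps27l highest in both right panels and Rpl12 lowest in the myeloid panel.

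Other genes of translation were read beside the family. In T cells of the aged over the young library, 0 of 8 elongation factors were past 1.5-fold, with a median CPM ratio of 0.844, and 4 of 16 other TOP genes were lower and 0 higher, with a median of 0.848, where 7.16% of all genes were lower and 31.7% higher. Eef1a1, Eef1b2, Eef1d, Eef1g and Eef2 are in both lists, so their medians are not separate. Tpt1, a growth-linked TOP gene, stood at 11920.6 CPM (young), 5319 (aged) and 8476 (aged+AA). Rack1, the scaffold protein of the small subunit, stood at 2638, 1238 and 1649 CPM. Both had ratios below that of the family, at 0.446 and 0.469. Fau, the fusion gene of a small-subunit protein, had ratios of 0.926 in aged over young and 1.03 in aged+AA over aged. Eef1a1, the factor that brings tRNA to the ribosome, had 0.668 and 1.5, and Eef2, the translocation factor, 1.08 and 1.15. Npm1, a nucleolar chaperone of ribosome assembly, had 0.856 and 1.22.

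The remaining lists lay nearer to all genes. In aged over young T cells 3 of 40 initiation factors were higher and 1 lower (median ratio 1.09), 7 of 33 ribosome biogenesis genes were higher and 0 lower (1.12), and 5 of 78 mitochondrial ribosomal protein genes were higher and 1 lower (1.15). All 3 medians were below that of all genes (0.32 on the log2 scale, against 0.12, 0.17 and 0.20), and the share of each list that was higher was under the 31.7% of all genes (7.16% were lower). Of 19 measured regulators of the mTOR, LARP1 and MYC axis 5 were higher and 2 lower, near the same shares of all genes. Larp1, which binds TOP mRNAs, had 47.3 (young), 94.2 (aged) and 78.9 CPM (aged+AA). Mtor stood at 9.86, 13.7 and 11.4 CPM and Rps6kb1, the S6 kinase, at 41.1, 55.7 and 51.5 CPM. Myc had an aged over young ratio of 0.958 in pooled T cells, but the T subsets differed. The ratio was 0.663 (counting interval 0.439 to 0.957) in CD4+ T cells and 1.04 in CD8+ T cells. It was 0.783 (0.676 to 0.903) in T cells with effector UMIs and 0.953 in those without. Myc was lower in aged B cells, at 95.9, 34.9 and 53.9 CPM. In monocyte-gated cells 32 of 78 mitochondrial ribosomal protein genes were higher and 5 lower in aged over young (all genes, 22.4% and 27.7%), with a median of 1.37, where the cytosolic family had a median of 1.13.

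Between classes, 14 of 16 other TOP genes were lower in NK than in T cells (all genes, 13.5% lower and 12.4% higher) and 12 of 16 lower in myeloid than in T cells (29.4% and 28.5%), with 0 higher in either (edgeR, adjusted as above). Of the mitochondrial ribosomal protein genes 11 of 78 were lower and 0 higher in NK than in T cells, and 14 lower and 5 higher in myeloid than in T cells. Their lower share was near that of all genes in NK cells and under it in myeloid cells. Eif4ebp1, the translation repressor that mTOR inactivates, was lower in T than in B cells by a log2 change of -1.47 (SE 0.16, edgeR adjusted p 2.19e-06) and higher in myeloid than in T cells by 3.73 (SE 0.18, edgeR adjusted p 2.52e-10). Myc was lower in myeloid than in T cells, at -3.06 (SE 0.31, edgeR adjusted p 8.23e-07).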

How the data were processed

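Raw UMI counts per gene and barcode were deposited by the authors as 3 unfiltered matrices, written by Cell Ranger 4 per the file headers; mm10 and Seurat 3.1.0 are named in the submitters' processing notes, and the gene annotation is not given in the sources used here. The libraries held 64496639 (young), 94944551 (aged) and 80424480 (aged+AA) UMIs. Barcodes were called as cells by total UMIs (at least the 99th percentile of the 5000 largest, divided by 10) or by difference from the free RNA profile of barcodes ranked 45001 to 90000 (at least 500 UMIs, false discovery rate 0.01). Cells under 250 genes or over 10% mitochondrial UMIs were dropped, and doublets marked by Scrublet (scanpy 1.11.5), 3.99 to 4.51% of cells, were removed. A class gate asked for UMIs of at least 2 distinct markers (3 for myeloid) of 1 class only.

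Library comparisons used CPM of class sums with 0.5 counts added and exact conditional binomial intervals (95%). Class contrasts used edgeR 4.0.16 quasi-likelihood tests on class sums of at least 50 cells in R 4.3.3, with TMM or with the family's total as library size, Benjamini-Hochberg adjusted, threshold 0.05. Both steps were tested on simulated data: true ratios of 2 and 0.5 between aged and young T cells came out at medians of 2.02 and 0.514, and the edgeR step called 39.8% of 98 genes raised 2-fold in T over B cells. Sequences came from GENCODE M21 (32158 of 32285 gene IDs matched) and RefSeq. Named were the 5 most and 5 least counted core members; per class and comparison the 3 each way farthest from the family by interval bound with at least 50 counts; the 4 each way with the largest change past the class test; and every paralog, stalk gene, Rpsa and 12 translation genes. Rps6, Rps18 and Rps24 in T cells, and the genes past the fold in aged+AA T cells, were named after their values were seen. Some genes that this rule names are not reported here. Members and lists were chosen with earlier results of these data known. No separate animals are recorded, so p-values measure only the spread between these libraries.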

Additional observations from a re-analysis of the deposited data

Results flagged for a closer look

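The ratio of the family's share between 2 libraries differed by class, and since each condition has 1 library the difference between classes was not tested. In aged over young the ratio of shares was 0.789 in T cells, 0.852 in B cells and 0.976 in NK cells, all below 1, and 1.11 in the myeloid gate, above 1. In aged+AA over aged it was 1.18 in T, 1.13 in B and 1.03 in NK cells and 0.769 in the myeloid gate. The myeloid gate held 71, 2215 and 308 cells, of which 12, 777 and 162 were neutrophil-gated, the cells with the lowest share, and within monocyte-gated cells the shares were 16.4%, 18.5% and 17.2%.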

How the results depend on the processing

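Named members kept their side of the family under every alternative run between libraries, and Rps27l, Rpl12 and Rps19 kept their call in NK or myeloid over T cells under every left-out library. The size of a named member's departure was marked as moved in 11 cases between libraries and as the same in 181. In class contrasts it was marked as weaker in 8 cases and as the same in 80. Shares and counts moved more, and except where a setting changes what is counted the cause was not tested. Counts of members below are followed in brackets by the count over all genes under the same setting. For counts relative to the family between libraries, those of all genes are not given here. At a mitochondrial limit of 5%, the ratio of shares in aged over young was 0.819 in T, 0.918 in B, and in aged+AA over aged it was 1.12 in B, 1.05 in NK. The members past the fold in aged+AA over aged numbered 1 lower in T (all genes, 1721 of 11906), 1 higher in myeloid (1822 of 10608). With free RNA subtracted, the ratio of shares in aged over young was 0.797 in T, 0.862 in B, 0.988 in NK, 1.13 in myeloid, and in aged+AA over aged it was 1.17 in T, 1.12 in B, 1.01 in NK, 0.744 in myeloid. Members past the fold in aged+AA over aged numbered 1 lower in NK (all genes, 1061 of 7801). Members past the fold relative to the family in aged+AA over aged numbered 0 higher in B. In T cells without effector UMIs, the ratio of shares in aged over young was 0.851 in T, and in aged+AA over aged it was 1.14 in T. The members past the fold in aged over young numbered 10 lower in T (all genes, 827 of 10632). In cells with 2 to 5% mitochondrial UMIs, the ratio of shares in aged over young was 0.860 in T, 0.919 in B, 1.08 in NK (reversed), and in aged+AA over aged it was 1.10 in T, 1.04 in B, 0.903 in myeloid. Members past the fold in aged over young numbered 10 lower in T (all genes, 687 of 11828), 2 higher in NK (1348 of 6717), 4 lower in NK (827 of 6717). In aged+AA over aged they numbered 2 higher in T (557 of 11828), 0 higher in B (470 of 11155), 1 higher in myeloid (2013 of 9170), 3 lower in myeloid (1187 of 9170). In cells with at most 5% haemoglobin UMIs (added after seeing the data), the ratio of shares in aged over young was 0.831 in T, 0.926 in B, 0.987 in NK, 1.17 in myeloid, and in aged+AA over aged it was 1.12 in T, 1.03 in B, 0.741 in myeloid. Members past the fold in aged over young numbered 1 higher in T (all genes, 4569 of 12409), 11 higher in myeloid (2355 of 10473). In aged+AA over aged they numbered 1 higher in B (568 of 11855), 1 lower in NK (1081 of 7703), 1 higher in myeloid (1691 of 10473). The members past the test numbered 0 lower in T over B (2501 of 12199). As medians over cells, the ratio of shares in aged over young was 0.737 in T, 0.911 in B, 0.931 in NK, 0.896 in myeloid (reversed), and in aged+AA over aged it was 1.26 in T, 1.05 in B, 0.981 in NK (reversed), 0.425 in myeloid. Without mitochondrial and haemoglobin UMIs in the total, the ratio of shares in aged over young was 0.819 in T, 0.909 in B, 0.989 in NK, 1.16 in myeloid, and in aged+AA over aged it was 1.13 in T, 1.04 in B, 0.747 in myeloid. With 1 more marker per gate, the ratio of shares in aged over young was 0.857 in B, 0.962 in NK, and in aged+AA over aged it was 1.17 in T, 1.12 in B, 1.02 in NK, 0.740 in myeloid. Members past the fold in aged over young numbered 1 higher in T (all genes, 4021 of 12681), 1 higher in B (2343 of 12098). In aged+AA over aged they numbered 0 higher in NK (868 of 7924), 1 higher in myeloid (1841 of 10768). Members past the fold relative to the family in aged over young numbered 1 higher in B, and in aged+AA over aged 0 higher in NK, 0 lower in NK, 1 lower in myeloid. The members past the test numbered 0 lower in T over B (all genes, 2474 of 12451). With doublets kept, the ratio of shares in aged over young was 0.855 in B. With cells of at least 1000 UMIs, called without the free RNA profile, the ratio of shares in aged+AA over aged was 1.04 in NK. Scaled to the UMIs outside the family, members past the fold in aged over young numbered 32 lower in T (all genes, 1326 of 12491). In aged+AA over aged they numbered 10 higher in T (1148 of 12491), 7 higher in B (997 of 11949), 1 higher in myeloid (1614 of 10627). Divided by the median ratio of all genes, members past the fold in aged over young numbered 52 lower in T (all genes, 1790 of 12491), 21 lower in B (1500 of 11949), 13 higher in myeloid (2457 of 10627), 4 lower in myeloid (2484 of 10627). In aged+AA over aged they numbered 10 higher in T (1163 of 12491), 1 higher in myeloid (1599 of 10627), 20 lower in myeloid (1821 of 10627). The median log2 ratio in T reversed for initiation factors to -0.20 (aged over young), ribosome biogenesis to -0.16 (aged over young), ribosome biogenesis to 0.10 (aged+AA over aged), regulators to 0.0133 (aged+AA over aged), mitochondrial ribosomal proteins to -0.12 (aged over young), mitochondrial ribosomal proteins to 0.0938 (aged+AA over aged). At the lower fold limit of the alternatives, members past the fold in aged over young numbered 3 higher and 47 lower in T (all genes, 6251 and 1551 of 12491), 1 higher and 28 lower in B (4380 and 1928 of 11949), 5 higher and 13 lower in NK (2516 and 1686 of 7834), 32 higher and 14 lower in myeloid (3211 and 4105 of 10627). In aged+AA over aged they numbered 32 higher and 1 lower in T (1722 and 3875), 28 higher and 1 lower in B (2083 and 2493), 9 higher and 4 lower in NK (1830 and 2038), 42 lower in myeloid (2697). With genes of at least 1 count kept, members past the fold in aged over young numbered 1 higher in T (all genes, 7003 of 18471), 1 higher in B (4266 of 17852). In aged+AA over aged they numbered 2 lower in T (4819 of 18471), 2 lower in B (3552 of 17852), 2 higher in NK (2549 of 13365). With the family's level taken as the members' median, members past the fold relative to the family in aged+AA over aged numbered 0 higher in NK, 3 lower in myeloid. For the class tests, T over B had 53 higher and 0 lower by DESeq2 (all genes, 2483 and 2172 of 12312), 51 higher without a filter beyond 1 count (3257 of 20648), 36 higher with total UMIs as scale (2161 of 12312), 33 higher with monocyte-gated cells in the myeloid place (2523 of 11983) and 6 higher and 0 lower without the library term (1933 and 1997 of 12312). NK over T had 1 higher by DESeq2 (1694 of 12312) and with total UMIs (2860 of 12312). Leaving out 1 library at a time gave 1 to 62 higher and 0 lower in T over B (all genes, 1663 to 2258 and 1647 to 2331 of 11446 to 12750). Relative to the family it gave 0 to 7 lower in T over B, 7 to 19 higher and 4 to 8 lower in NK over T, and 11 to 23 higher and 8 to 16 lower in myeloid over T, against 3, 19, 8, 25 and 10 with all libraries. In that measure all genes gave 2089 to 5723 lower in T over B, and 6303 to 7949 higher and 211 to 245 lower in NK over T. In myeloid over T they gave 6476 to 7498 higher and 348 to 1022 lower. No paired analysis was possible because each condition has 1 library; the library term of the class tests is the only block. Depth limits NK, young myeloid and paralog values most: NK sums held 751584 to 1172166 UMIs against 7830488 or more in T cells, and arms left with 2 libraries are assumed to vary alike.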
